A study of Homo sapiens with 6 samples.

Results

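The genes described here are 37 enzymes of amino acid synthesis and one-carbon metabolism, out of 60671 gene rows in the deposited counts. They were chosen by name, as the rows whose Ensembl identifier carries 1 of 37 listed gene symbols, and they fall into 4 branches: 12 genes of serine and folate metabolism, 7 of methionine and cysteine, 13 of glutamine and proline, and 5 of arginine and polyamines. Of the 37, 34 had enough reads to be tested. *ALDH1L1*, *CBS* and *GLS2* did not.

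The cells were of 1 clone of K562, an established line from a chronic myeloid leukemia, that expresses Lamin B1 fused to M.CviPI, a methyltransferase of GpC sites, with a Flag tag and a nuclear localization signal, once doxycycline is added. Both groups comprised 3 separately treated cultures. The DMSO group received 0.1% DMSO as vehicle for 72 h, and the EZH2i group received 1 µM GSK343, an inhibitor of the histone methyltransferase EZH2, for 72 h. Doxycycline at 1 µg/mL was present in both groups for the final 24 h, so every library comes from cells in which the fusion had been induced. Polyadenylated RNA was read from its 3′ end, which places most reads of a gene near the end of its transcript. Since the number of reads per transcript then does not grow with transcript length, and priming differs between 3′ ends, levels are compared between treatments, and a higher CPM of one gene than of another is a difference in reads that need not be one in transcripts. Reads counted on genes ranged from 6327544 to 8987768 per library, and those on the 37 genes from 28797 to 40898. Values are given as CPM, counts scaled to a common library size from the reads on tested genes and the TMM factors.

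Serine is made from a glycolytic intermediate by PHGDH, PSAT1 and PSPH, and the SHMT enzymes then pass its side-chain carbon to folate. Folate-bound carbon is oxidized and reduced by parallel enzymes in mitochondria and cytosol and is used for purines, thymidylate and the remethylation of homocysteine to methionine, from which the methyl donor S-adenosylmethionine (SAM), the cosubstrate of EZH2, is made. Many of these enzymes are transcriptional targets of ATF4, the effector of the amino acid response, and *ODC1* and *SRM* of the polyamine branch are targets of MYC.

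Before the comparison, 2 properties of the libraries are given because they touch every value. EZH2i replicate 3 had 12.7% of its listed reads on no annotated gene, against 7.43% to 8.51% in the other libraries. EZH2i replicate 1 was the farthest from its own group, with 10.8 and 12.7 as the chi-square of the counts over its degrees of freedom against EZH2i replicates 2 and 3, which differed from each other by 4.56; the DMSO pairs gave 6.42 to 8.46. Without EZH2i replicate 3, the median log2 fold change of the 34 genes was -0.26. In that fit 2 of them were called lower, where 0.82% of all tested genes were. Without EZH2i replicate 1 the median was -0.22 and 4 were called lower, where 0.973% of all tested genes were. All 6 libraries together gave -0.25 and 2 genes, where 0.922% of all tested genes were lower.

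The erythroid and leukemic markers of K562 were present, with a summed level of 1320, 1191 and 1222 CPM in DMSO and 1471, 1373 and 1327 CPM in EZH2i over 12 genes. *TFRC* held the largest share of that sum in DMSO, while *HBE1* was under 1 CPM in every library. Of its last 500 exonic bases, 89.4% are shared with another annotated gene on the same strand, so this count cannot tell how far *HBE1* was transcribed. Of the markers of other cell types, the 6 lymphocyte genes summed to 68.4 ± 6.30 CPM and 93.6 ± 9.98 CPM in DMSO and EZH2i (SD over 3 libraries, as below), nearly all of it *CD3D*, with *MS4A1* at 0 in every library. The 6 monocyte and granulocyte genes summed to 14.0 ± 2.74 and 21.5 ± 1.54 CPM (SD, n = 3 each), nearly all of it *LYZ*, with *CSF1R* and *ELANE* at 0. The 7 epithelial and fibroblast genes summed to 79.5 ± 5.13 and 71.1 ± 1.87 CPM (SD, n = 3 each), mostly *EPCAM*, with *KRT5* at 0. *HBZ*, *HBG2*, *CD3D*, *LYZ* and *COL1A1* were called higher after EZH2 inhibition; whether this has a part in the values below was not tested.

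Most of the 37 genes were at slightly lower mean levels after EZH2 inhibition than after DMSO, while fold changes of further genes of the same branches centered near 0 (given below). The summed level of all 37 genes was 4707, 4679 and 4641 CPM in the 3 DMSO libraries and 4156, 4059 and 4125 CPM in the 3 EZH2i libraries. The EZH2i libraries lay close together and below every DMSO library, at 88.0% of the DMSO mean, and the gap between the groups was larger than the SD of either (33.1 and 49.4 CPM). The median log2 fold change of the 34 tested genes was -0.25, with quartiles of -0.38 and -0.11, against a median of 0.00 and quartiles of -0.17 and 0.19 over all 12364 tested genes. The log2 fold change was below 0 for 30 of the 34 (88.2%), as it was for 50% of all tested genes. *GLUL*, *GOT2* and *PYCR1* among the 30, and *GLUD1* among the other 4, sit so close to 0 that their sign turned with the scaling of the libraries. In bulk RNA, a lower level per cell and fewer cells with the transcript cannot be told apart.

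Few of these differences passed the test gene by gene. By the quasi-likelihood test of edgeR, with Benjamini-Hochberg adjustment over all tested genes, at an adjusted p under 0.05, 2 members were lower, *MTHFD2* and *ARG2*, where 0.922% of all tested genes were lower. No member was higher (0 of 34, also at an unadjusted p under 0.05 and with DESeq2 and limma-voom), where 3.34% of all tested genes were. At an unadjusted p under 0.05, 12 of the 34 were lower, or 35.3%, and 0 were higher, against 8.21% and 10.9% of all tested genes. Every EZH2i library was below every DMSO library for 11 of the 34, or 32.4%, against 11.1% of all tested genes. The opposite order was seen for 0 of the 34, against 13.3% of all tested genes, and the groups overlapped for the other 23. The p-values rest on the spread between 3 cultures a group. The number called lower changed with the filter, the method and the library left out. With no filter on low counts edgeR called 8, where 1.33% of all genes were lower. DESeq2 called 4, where 0.95% of all genes were lower. Leaving out EZH2i replicate 1 gave 4, where 0.973% of all genes were lower. Leaving out DMSO replicate 1 gave 1, and the share of all genes called lower also fell, to 0.258%.

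**Figure D1:**
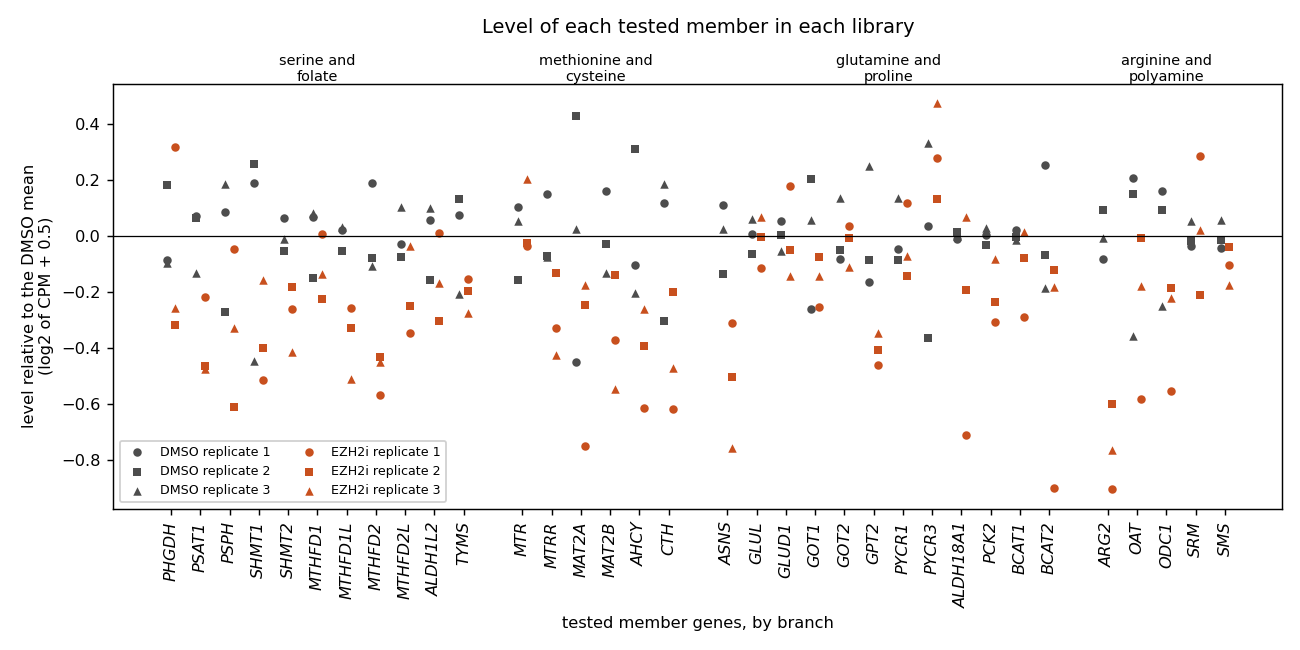
Level of each of the 34 tested genes in each of the 6 libraries, as log2 of CPM + 0.5 minus the mean of the DMSO libraries on that scale; genes are grouped by branch, DMSO is gray, EZH2i is orange, and circles, squares and triangles are replicates 1, 2 and 3. Most orange points lie below 0, and the orange and gray points of *MTHFD2*, *ARG2* and 9 other genes do not overlap.

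Library by library, the median of the 34 genes relative to the DMSO mean was 0.04, -0.04 and 0.02 on the log2 scale in the DMSO libraries and -0.28, -0.20 and -0.18 in the EZH2i libraries, in the order of their replicate numbers. The plot of relative levels shows this shift in every EZH2i library. The number of the 34 below the DMSO mean was 12, 22 and 16 in the DMSO replicates and 26, 33 and 28 in the EZH2i replicates. Within the EZH2i group the genes spread unevenly. EZH2i replicate 1 held both the lowest values of *ALDH18A1*, *BCAT2*, *MAT2A* and *ODC1* and the highest values of *PHGDH* and *SRM*.

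**Figure D2:**
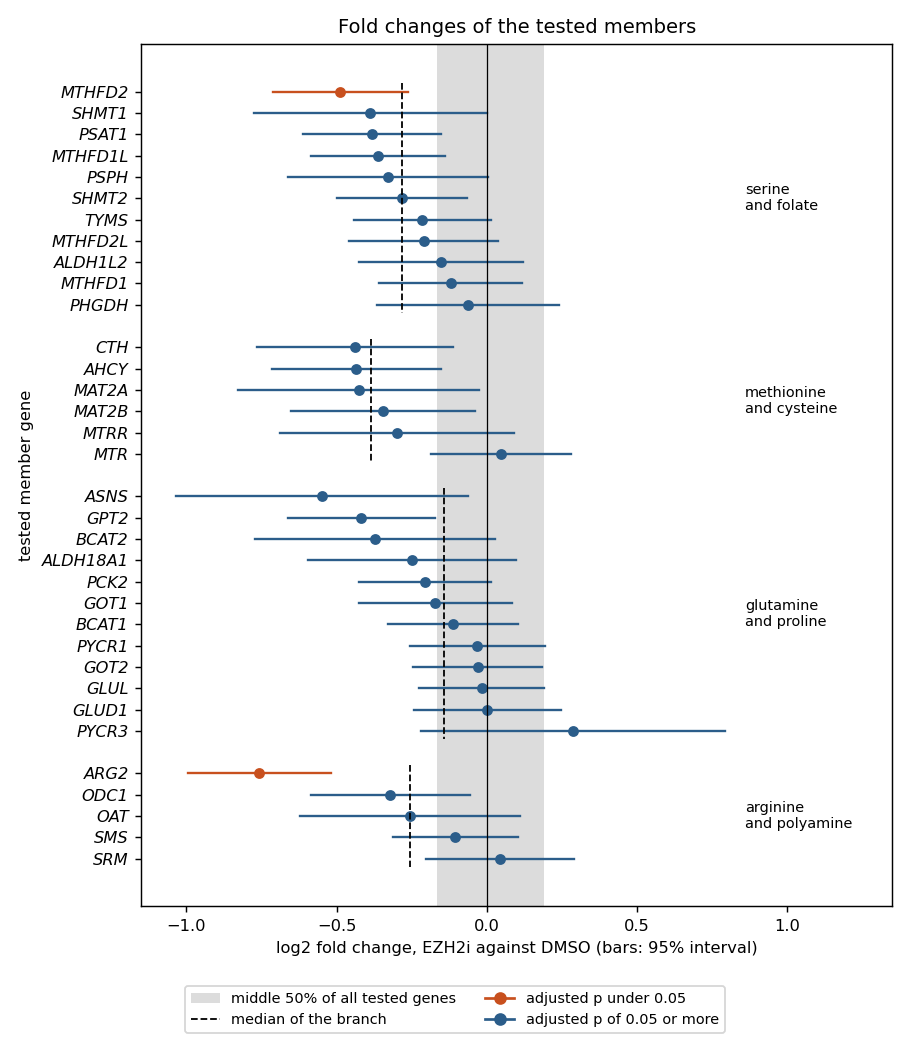
Log2 fold change of the 34 tested genes after EZH2 inhibition, with 95% intervals from the standard error, which includes the spread between cultures; dashed lines are branch medians and the gray band spans the quartiles of all 12364 tested genes. The intervals of 12 genes lie below 0 and those of 22 include 0; *MTHFD2* and *ARG2*, in orange, are the genes with an adjusted p under 0.05.

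The promoters of the members were read for the core of the C/EBP-ATF response element, TGATGNAA, which ATF4 binds with C/EBP partners, and for the E-box CACGTG, which MYC and MAX bind. RefSeq promoters on GRCh38.p14 were at hand for 29 of the 37 genes, 47 promoters in all, several of which share bases where a gene has nearby starts, and the 250 bases before each start were searched on both strands. TGATGNAA was found in 5 of the 47 (10.6%), in 4 genes, against 3.14% of 35116 promoters, and CACGTG in 6 of the 47 (12.8%), in 5 genes, against 6.34%. No match of one overlapped a match of the other. The windows with TGATGNAA are shown because they tell which members carry these letters; they run 5′ to 3′ on the strand of the gene, with the match in capitals, which in *GOT1* lies on the opposite strand. The *MTHFD1L* window is chr6:150866337-150866384, that of *ASNS* is chr7:97872449-97872496, that of *GOT1* is chr10:99430795-99430842 and that of *BCAT1* is chr12:24949122-24949169, with *MTHFD1L* on the plus strand and the other genes on the minus strand.
*MTHFD1L*: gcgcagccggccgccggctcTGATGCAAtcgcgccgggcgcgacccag
*ASNS*: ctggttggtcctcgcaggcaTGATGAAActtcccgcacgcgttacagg
*GOT1*: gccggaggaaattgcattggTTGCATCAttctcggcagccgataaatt
*BCAT1*: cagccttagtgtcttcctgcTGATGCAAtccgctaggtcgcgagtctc
In *ASNS* and *BCAT1* the match lies 68 and 48 bases before an annotated start and in *GOT1* 198 bases before its start. In *MTHFD1L* it lies 129 and 90 bases before 2 annotated starts. *MTHFD1L* and *BCAT1* each also have an annotated start that lies ahead of the match. The remaining promoters of *MTHFD1L*, *ASNS* and *BCAT1* had no match in the searched bases.

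The E-box was found in *MTHFD1*, *MTHFD1L*, *ALDH18A1*, *ODC1* and *SRM*. The windows of the polyamine genes *ODC1* (chr2:10448016-10448061) and *SRM* (chr1:11060192-11060237), both on the minus strand, and of *MTHFD1L* (chr6:150866312-150866357, plus strand), which has both motifs, are printed in the same way.
*ODC1*: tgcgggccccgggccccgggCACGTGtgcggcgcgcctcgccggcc
*SRM*: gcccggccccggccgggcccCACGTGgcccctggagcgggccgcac
*MTHFD1L*: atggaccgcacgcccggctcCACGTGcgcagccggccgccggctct
Neither string of letters is in the searched windows of *MTHFD2* and *ARG2*, the genes that passed the test. A match describes the sequence alone, and no match says only that these letters are not in this window.

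Of the serine and folate branch, 11 of 12 genes were tested, all 11 had a log2 fold change below 0, with a median of -0.28, and 1 passed the test, where 0.922% of all tested genes were lower. That gene was *MTHFD2* (ENSG00000065911; GRCh38 chromosome 2, 74186172 to 74217565, plus strand), the mitochondrial methylenetetrahydrofolate dehydrogenase and cyclohydrolase. It was at 489.5, 406 and 398 CPM in the DMSO libraries and at 289.7, 318 and 314 CPM in the EZH2i libraries, in the order of their replicate numbers here and below. Every EZH2i library was lower than every DMSO library, and DMSO replicate 1 was the highest by a wide margin. The group means were 431 ± 50.6 and 307 ± 15.4 CPM (SD, n = 3 each), and its log2 fold change was -0.49 with a standard error of 0.107 (adjusted p = 0.0155, edgeR's quasi-likelihood test, Benjamini-Hochberg adjusted). Without DMSO replicate 1 the log2 fold change was -0.39 and the adjusted p was 0.1 by the same edgeR test; it was from 0.000341 to 0.0369 under the other alternatives run.

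The last 500 exonic bases of *MTHFD2* are wholly covered by exons of *SLC4A5* on the opposite strand. The strand setting of the counting is not given in the sources used here, but the counts themselves bear on it. Over the 6 libraries, 540 protein-coding genes whose last 500 bases are all covered on the opposite strand had a median of 692.5 reads and 665 genes covered in the same way on their own strand had a median of 0, while the 16392 genes that share none of these bases had a median of 146. Genes covered on their own strand thus held few reads, and genes covered on the opposite strand held many. *TYMS* and *MAT2A* are likewise wholly covered on the opposite strand, by *ENOSF1* and *GGCX*.

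The other enzymes of the mitochondrial folate pathway were SHMT2, which splits serine, MTHFD1L, which releases formate, MTHFD2L, a paralog of MTHFD2, and ALDH1L2, which oxidizes formyl-folate to CO2. *SHMT2* was at 191, 176 and 182 CPM in DMSO and 153, 161 and 137 CPM in EZH2i, and *MTHFD1L* at 102, 97.2 and 103 CPM in DMSO and 84.4, 80.2 and 70.8 CPM in EZH2i; these genes were singled out after their values were seen. In both, the groups did not overlap. Their log2 fold changes were -0.28 and -0.36 and did not pass the threshold (adjusted p = 0.129 and 0.0621, edgeR's quasi-likelihood test, Benjamini-Hochberg adjusted); *MTHFD1L* passed it without EZH2i replicate 1 (adjusted p = 0.0241, edgeR) and without a filter on low counts (0.0442), and not under the other alternatives run, where the adjusted p reached 0.201. *MTHFD2L* and *ALDH1L2* had log2 fold changes of -0.21 and -0.15, with overlapping groups, and that of *ALDH1L2* ranged from -0.24 (EZH2i replicate 1 left out) to -0.08 (EZH2i replicate 2 left out).

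Summed over these 5 mitochondrial enzymes, the level was 882, 770.4 and 788 CPM in DMSO and 612, 641 and 614 CPM in EZH2i. All 3 EZH2i libraries lay below all 3 DMSO libraries, at 76.5% of their mean. The cytosolic enzymes SHMT1, MTHFD1 and ALDH1L1 summed to 102, 91.9 and 92.8 CPM in DMSO and 88.3, 79.6 and 85.7 CPM in EZH2i, also without overlap, at 88.5% of the DMSO mean. *MTHFD1*, the trifunctional cytosolic enzyme, had a log2 fold change of -0.12 with overlapping groups, which was -0.19 and -0.18 when DMSO replicate 2 or EZH2i replicate 1 was left out and -0.08 and -0.07 for DMSO replicate 3 and EZH2i replicate 2. *SHMT1*, the cytosolic counterpart of *SHMT2*, was at 25.5, 26.7 and 16.2 CPM in DMSO and 15.4, 16.8 and 19.9 CPM in EZH2i. DMSO replicate 3 lay among the EZH2i libraries, and the log2 fold change of -0.39 ranged from -0.59 without that library to -0.25 without DMSO replicate 2. *ALDH1L1* had 3, 1 and 1 reads in DMSO and 3, 9 and 1 reads in EZH2i, 18 in all and too few for a test; 3 reads in a library, taken as the floor, are 0.34 to 0.469 CPM. The floor covers counting error only.

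The ratio of mitochondrial to cytosolic folate reads needs no scaling between libraries. It was 8.67, 8.38 and 8.49 in the DMSO libraries and 6.93, 8.05 and 7.17 in the EZH2i libraries. Every EZH2i library was lower than every DMSO library, and EZH2i replicate 2 came closest to them. This order rests on *MTHFD2*: with that gene left out, a choice made after seeing the data, the ratio was 3.86, 3.97 and 4.20 in DMSO and 3.65, 4.05 and 3.50 in EZH2i, and the groups overlapped. For *MTHFD2* over *MTHFD1* alone the ratio was 6.47, 6.24 and 5.21 in DMSO and 4.0, 5.16 and 4.79 in EZH2i, where EZH2i replicate 2 and DMSO replicate 3 nearly touch. For *MTHFD1L* over *MTHFD1* it was 1.40 ± 0.0829 and 1.18 ± 0.112, again without overlap, while for *SHMT2* over *SHMT1* it was 8.43 ± 2.43 and 8.80 ± 1.66 and the groups overlapped (SD, n = 3 each). These ratios of 3 against 3 are a description, since an exact permutation test of them cannot go below 0.1.

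**Figure D3:**
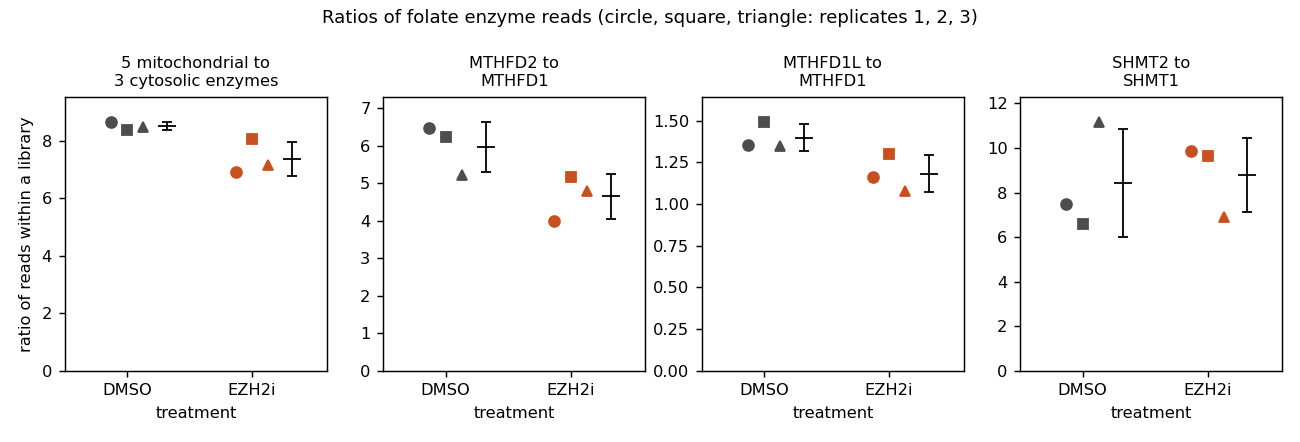
Ratios of reads of mitochondrial to cytosolic folate enzymes within each library, for all listed enzymes and for 3 pairs of enzymes; circles, squares and triangles are replicates 1, 2 and 3, and the black bars are means ± SD over 3 libraries. In the first 3 panels all EZH2i libraries lie below all DMSO libraries, and in the panel of *SHMT2* to *SHMT1* they overlap.

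Among the enzymes that make serine, *PSAT1*, the phosphoserine transaminase, was at 176, 175 and 152 CPM in DMSO and 144, 121 and 120.3 CPM in EZH2i. The highest EZH2i library lay below the lowest DMSO library by less than the SD of either group. Its log2 fold change was -0.38 with a standard error of 0.109 (adjusted p = 0.0559, edgeR's quasi-likelihood test, Benjamini-Hochberg adjusted), and it passed the threshold with DESeq2 (adjusted p = 0.0267), without a filter on low counts (0.019, edgeR) and without EZH2i replicate 1 (0.00958, edgeR). It did not pass under the other alternatives run, and without each of the other 5 libraries the adjusted p by edgeR was from 0.0742 to 0.192. Of the 50-base windows in its last 500 bases, 26.4% occur elsewhere in the genome, and reads with several alignments were not counted. *PHGDH*, the first enzyme of the path, did not share this order: it was at 249, 300.4 and 247 CPM in DMSO and 329.7, 212 and 222 CPM in EZH2i. EZH2i replicate 1 was above every other library and EZH2i replicates 2 and 3 were below them, so that the log2 fold change of -0.06 has a 95% interval from -0.37 to 0.24; it was -0.29 when EZH2i replicate 1 was left out and from 0.03 to 0.05 when DMSO replicate 2, EZH2i replicate 2 or EZH2i replicate 3 was. *PSPH*, the phosphatase, had a log2 fold change of -0.33 with overlapping groups (-0.20 when EZH2i replicate 2 was left out), and 44.6% of its windows are repeated. *TYMS*, the thymidylate synthase, was at 264 ± 32.1 and 227 ± 9.75 CPM (SD, n = 3 each), with overlapping groups and a log2 fold change of -0.22.

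Of the methionine and cysteine branch, 6 of 7 genes were tested, with a median log2 fold change of -0.39. Of these, 0 passed edgeR's test in either direction, where 0.922% of all tested genes were lower and 3.34% higher. At an unadjusted p under 0.05, 4 were lower, or 66.7%, against 8.21% of all tested genes. DESeq2 and limma-voom also called 0, where 0.95% and 0.922% of all genes were lower. Without a filter on low counts edgeR called 3 lower, *AHCY*, *CTH* and *MAT2A*, where 1.33% of all genes were lower. The EZH2i libraries were all below the DMSO libraries for 3 of the 6 genes, against 11.1% of all tested genes. *AHCY*, which hydrolyzes the S-adenosylhomocysteine left by methyl transfer, was at 137, 183 and 128 CPM in DMSO and 96.3, 112 and 123 CPM in EZH2i. The EZH2i libraries were all lower, but DMSO replicate 3 and EZH2i replicate 3 were close and DMSO replicate 2 stood far above the rest. The log2 fold change was -0.43 with a standard error of 0.134 (adjusted p = 0.0767, edgeR's quasi-likelihood test, Benjamini-Hochberg adjusted), and without a filter on low counts it passed (adjusted p = 0.00598). Without DMSO replicate 2 the log2 fold change was -0.26 (adjusted p = 0.359, edgeR), the highest adjusted p of the alternatives run.

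*CTH*, the cystathionine gamma-lyase that yields cysteine, had a log2 fold change nearly equal to those of *AHCY* and *MAT2A*, and which of them was largest in size changed with the library left out. It was at 38.2, 28.4 and 40.1 CPM in DMSO and 22.8, 30.5 and 25.2 CPM in EZH2i. The groups overlapped, because DMSO replicate 2 was below EZH2i replicate 2. Its log2 fold change was -0.44 with a standard error of 0.155 (adjusted p = 0.122, edgeR's quasi-likelihood test, Benjamini-Hochberg adjusted). Over the alternatives run, the adjusted p was from 0.0482, without a filter on low counts, to 0.338, without DMSO replicate 3.

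SAM is made by a synthetase with a catalytic subunit, MAT2A, and a regulatory subunit, MAT2B. *MAT2A* was at 40.1 ± 12.0 and 30.0 ± 6.20 CPM in DMSO and EZH2i (SD, n = 3 each), with overlapping groups and 46.6% of its windows repeated elsewhere in the genome, and *MAT2B* was at 30.0 ± 3.17 and 23.5 ± 3.41 CPM (SD, n = 3 each), where the highest EZH2i library, 27.1, lay just under the lowest DMSO library, 27.2. Their log2 fold changes were -0.43 and -0.35. That of *MAT2A* was -0.18 when DMSO replicate 2 was left out, -0.62 for DMSO replicate 1 and -0.27 for EZH2i replicate 1, and it passed the threshold in edgeR without a filter on low counts (adjusted p = 0.0468; up to 0.701 under the other alternatives). *MTR*, the methionine synthase, had a log2 fold change of 0.05 with groups that overlapped, and was below 0 when DMSO replicate 2 or EZH2i replicate 3 was left out (-0.03 in both). *MTRR*, which reactivates MTR, was at 12.8, 10.9 and 10.9 CPM in DMSO and 9.07, 10.5 and 8.45 CPM in EZH2i. Every EZH2i library was lower, by a small margin in replicate 2, and the log2 fold change was -0.30 (adjusted p = 0.398, edgeR's quasi-likelihood test, Benjamini-Hochberg adjusted). *CBS*, the cystathionine beta-synthase, had 3 reads in all, 1 each in DMSO replicate 2 and EZH2i replicates 1 and 3. All 50-base windows of its last 500 bases occur elsewhere in the genome, so that its count cannot tell whether the gene was transcribed.

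Of the glutamine and proline branch, 12 of 13 genes were tested, with a median log2 fold change of -0.14, and 0 passed edgeR's test in either direction. At an unadjusted p under 0.05, 2 were lower, or 16.7%, against 8.21% of all tested genes. DESeq2 called 1 lower and limma-voom 0, where 0.95% and 0.922% of all genes were lower. The EZH2i libraries were all lower for 3 of the 12, against 11.1%. *GPT2*, the mitochondrial alanine transaminase, was at 127, 135 and 170.1 CPM in DMSO and 104, 108 and 112 CPM in EZH2i. The EZH2i libraries lay close together below all DMSO libraries, of which replicate 3 was the highest. With a log2 fold change of -0.42 and a standard error of 0.116 it missed the threshold narrowly (adjusted p = 0.0506, edgeR's quasi-likelihood test, Benjamini-Hochberg adjusted), and it passed with DESeq2, with RLE size factors, with a replicate block, without a filter on low counts and with legacy = FALSE (adjusted p from 0.00948 to 0.0485). It did not pass with limma-voom (0.0556), with library size only (0.0676), with at least 10 counts in every library (0.0568) or without any 1 library; without DMSO replicate 3 the log2 fold change was -0.28 (adjusted p = 0.223, edgeR), and without each of the others the adjusted p was from 0.0596 to 0.104.

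*ASNS*, the asparagine synthetase, had the largest log2 fold change of this branch in size over all 6 libraries, though not without DMSO replicate 1 or EZH2i replicate 3. It was at 7.98, 6.65 and 7.49 CPM in DMSO and 5.82, 5.04 and 4.15 CPM in EZH2i. Every EZH2i library was lower, but these values rest on 29 to 66 reads a library. The log2 fold change was -0.55 with a standard error of 0.231 (adjusted p = 0.197, edgeR's quasi-likelihood test, Benjamini-Hochberg adjusted). Of the last 500 exonic bases of *ASNS*, 97.8% are shared with another annotated gene on the same strand, ENSG00000284707, which had 0 reads in every library. How many reads of *ASNS* went uncounted for this overlap was not tested.

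*BCAT1*, the cytosolic branched-chain transaminase, had the highest CPM of the branch. It was at 521, 512 and 508 CPM in DMSO and 420.2, 487 and 518 CPM in EZH2i. The DMSO libraries were nearly equal and the EZH2i libraries spread widely, with replicate 3 inside the DMSO range. Its mitochondrial paralog *BCAT2* had a log2 fold change of -0.37, with EZH2i replicate 1 at 12.9 CPM and the other 5 libraries from 21.4 to 29.2 CPM; without EZH2i replicate 1 it was -0.15, and without DMSO replicate 1 it was -0.24. The summed level of the 5 transaminases of this branch, *GOT1*, *GOT2*, *GPT2*, *BCAT1* and *BCAT2*, was 1078, 1109 and 1173 CPM in DMSO and 966, 1046 and 1053 CPM in EZH2i, without overlap. *PSAT1* and *OAT*, transaminases of other branches, are not in this sum. The 3 enzymes of serine synthesis and the 3 of polyamine synthesis, summed in the same way, did overlap between the groups. They were at 464, 505 and 442 CPM in DMSO and 509, 357 and 371 CPM in EZH2i for serine synthesis, and at 630.3, 628 and 609 CPM in DMSO and 619.5, 554 and 583 CPM in EZH2i for polyamine synthesis.

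Several genes of this branch stayed within the spread of the replicates. *GLUL*, the glutamine synthetase, was at 285 ± 12.4 and 282 ± 17.7 CPM, *GLUD1*, the glutamate dehydrogenase, at 55.9 ± 2.12 and 56.0 ± 6.64 CPM, and *GOT2*, the mitochondrial aspartate transaminase, at 340.4 ± 28.2 and 333 ± 17.2 CPM (SD, n = 3 each). The 95% intervals of their log2 fold changes were -0.23 to 0.19, -0.24 to 0.25 and -0.24 to 0.18. In the path to proline, *ALDH18A1* makes the semialdehyde from glutamate and the PYCR reductases finish it. *ALDH18A1* was at 30.7, 31.2 and 30.9 CPM in DMSO and 18.7, 27.0 and 32.4 CPM in EZH2i, so that the DMSO libraries were almost equal and the EZH2i libraries lay on both sides of them. *PYCR1* was at 315 ± 26.3 and 308 ± 28.9 CPM, and *PYCR3* at 6.07 ± 1.55 and 7.44 ± 0.953 CPM (SD, n = 3 each), both with overlapping groups. The log2 fold change of *PYCR3* was 0.29, with an interval from -0.22 to 0.79; it was 0.11 when DMSO replicate 2 was left out, 0.50 for DMSO replicate 3 and 0.19 for EZH2i replicate 3. *PCK2*, the mitochondrial phosphoenolpyruvate carboxykinase, had groups that did not overlap and a log2 fold change of -0.21, and *GOT1* had one of -0.17 with overlap, which was -0.29 when DMSO replicate 1 was left out and -0.06 when DMSO replicate 2 was. *GLS2*, a glutaminase, had 1 read in EZH2i replicate 2 and 0 in the other libraries.

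Of the arginine and polyamine branch, all 5 genes were tested, with a median log2 fold change of -0.26, and 1 was lower by edgeR's test, where 0.922% of all tested genes were. *ARG2* (ENSG00000081181; GRCh38 chromosome 14, 67619920 to 67651708, plus strand), the mitochondrial arginase, which splits arginine into ornithine and urea, was at 81.9, 92.5 and 86.4 CPM in the DMSO libraries and at 46.2, 57.1 and 51.0 CPM in the EZH2i libraries. The groups were far apart, and the gap between them was several times the SD of either. Group means were 86.9 ± 5.29 and 51.4 ± 5.48 CPM (SD, n = 3 each), and its log2 fold change was -0.76 with a standard error of 0.113 (adjusted p = 0.00115, edgeR's quasi-likelihood test, Benjamini-Hochberg adjusted), the lowest log2 fold change of the members. *ARG2* was called lower under every alternative run. Exons of *VTI1B* on the opposite strand cover 54.6% of its last 500 bases.

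Ornithine is used by OAT, the aminotransferase that links it to proline, and by ODC1, the decarboxylase that opens polyamine synthesis. *ODC1* was at 199, 190.2 and 149.9 CPM in DMSO and 122, 157 and 153 CPM in EZH2i. The groups overlapped, since DMSO replicate 3 was below EZH2i replicates 2 and 3. Its log2 fold change was -0.32 (adjusted p = 0.163, edgeR's quasi-likelihood test, Benjamini-Hochberg adjusted), and -0.21 when EZH2i replicate 1 was left out. *OAT*, with the lowest CPM of the branch, was at 33.6, 32.3 and 22.6 CPM in DMSO and 19.2, 28.9 and 25.6 CPM in EZH2i, and DMSO replicate 3 again lay among the EZH2i values. The spermidine synthase *SRM*, with the highest CPM of the branch, was at 292, 296 and 311 CPM in DMSO and 365, 258 and 304 CPM in EZH2i. As with *PHGDH*, EZH2i replicate 1 was the highest and EZH2i replicate 2 the lowest of all libraries. The spermine synthase *SMS* was at 143 ± 5.18 and 133 ± 6.24 CPM (SD, n = 3 each), and 43.0% of its windows are repeated elsewhere in the genome. The log2 fold changes of *OAT*, *SRM* and *SMS* were -0.26, 0.04 and -0.11, and that of *OAT* was -0.10 without EZH2i replicate 1, -0.16 without DMSO replicate 1, -0.39 without EZH2i replicate 2 and -0.42 without DMSO replicate 3. That of *SRM* was -0.09 when EZH2i replicate 1 was left out.

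**Figure D4:**
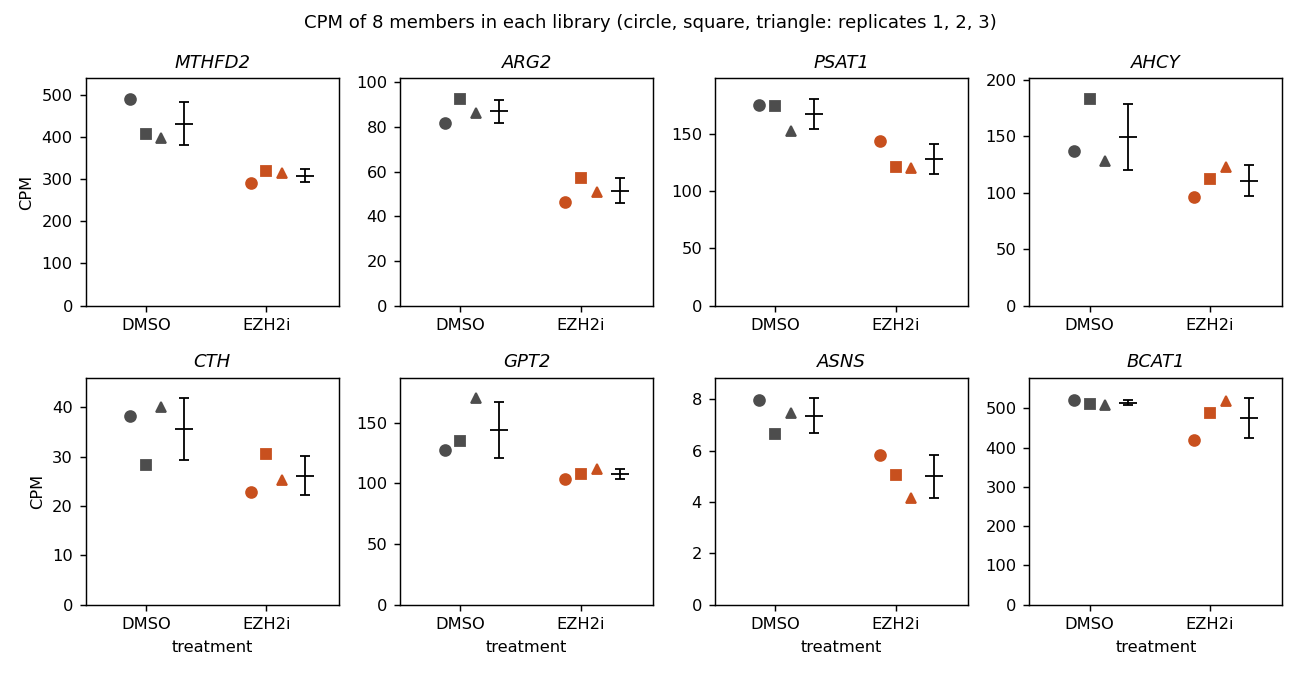
CPM of 8 members in each library; circles, squares and triangles are replicates 1, 2 and 3, black bars are means ± SD over 3 libraries, and each axis starts at 0. The groups do not overlap for *MTHFD2*, *ARG2*, *PSAT1*, *AHCY*, *GPT2* and *ASNS*, and they overlap for *CTH* and *BCAT1*.

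The summed levels of the branches were 1643 ± 87.8 and 1347 ± 86.3 CPM for serine and folate, 387 ± 21.8 and 324 ± 29.9 CPM for methionine and cysteine, 1907 ± 82.9 and 1781 ± 46.9 CPM for glutamine and proline, and 739 ± 18.1 and 662 ± 22.3 CPM for arginine and polyamines (SD, n = 3 each; DMSO first). In each branch every EZH2i library was below every DMSO library. For serine and folate this order rests on *MTHFD2*, and for arginine and polyamines on *ARG2*. With that gene left out of its branch sum, a choice made after seeing the data, EZH2i replicate 1 was above DMSO replicate 3 and the groups overlapped. The EZH2i mean was 82.0%, 83.7%, 93.4% and 89.5% of the DMSO mean, in that order.

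For a list of 81 further genes of the same 4 branches, fold changes centered near 0. Of the 56 tested, 29 had a log2 fold change below 0, and the median was -0.02; its difference from that of the members was not tested. By edgeR's quasi-likelihood test 0 were lower and 3 were higher at an adjusted p under 0.05, against 0.922% and 3.34% of all tested genes, while at an unadjusted p under 0.05 8 were lower and 7 higher, against 8.21% and 10.9%. Among the 15 tested of serine and folate the median was -0.10, with 10 below 0. Of these, 4 were lower, or 26.7%, and 2 higher at the unadjusted threshold. The medians of the other branches were from 0.00 to 0.04. The genes named next are single results, not one about the list. DESeq2 called 1 lower, *ATIC*, and limma-voom 0, where 0.95% and 0.922% of all genes were lower. The genes that rose were *NNMT*, *OAZ2* and *AHCYL2*. NNMT spends SAM to methylate nicotinamide, and its transcript was at 22.2, 17.7 and 18.5 CPM in DMSO and 39.7, 32.2 and 31.8 CPM in EZH2i, which gave a log2 difference of 0.83 (adjusted p = 0.00337, edgeR's quasi-likelihood test, Benjamini-Hochberg adjusted). *OAZ2*, an antizyme that targets ODC1 for degradation, was at 89.2 ± 7.84 and 133 ± 9.32 CPM (SD, n = 3 each), and its log2 fold change was 0.57 (adjusted p = 0.00544, edgeR). *AHCYL2*, a homolog of AHCY, was at 5.62 ± 0.574 and 11.1 ± 0.972 CPM (SD, n = 3 each), and its log2 fold change was 0.99 (adjusted p = 0.0113, edgeR), which did not pass without DMSO replicate 2 (0.91, adjusted p = 0.0631, edgeR; 0.00141 to 0.0395 under the other alternatives). For all 3, every EZH2i library was above every DMSO library.

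Of 12 transcription factors and effectors of the ATF4 pathway, which includes regulators of many member genes, 11 were tested and 4 were lower by the same edgeR test, or 36.4%, against 0.922% of all tested genes. *ATF5*, *TRIB3*, *CEBPG* and *DDIT4* were at 35.9%, 60.4%, 62.5% and 69.9% of their DMSO means. *ATF4* itself was at 585, 547 and 619 CPM in DMSO and 718, 511 and 452 CPM in EZH2i. As with *PHGDH* and *SRM*, EZH2i replicate 1 was the highest library and the groups overlapped; its log2 fold change was -0.06, and 50.1% of its windows are repeated elsewhere in the genome. ATF4 is regulated largely at translation, and protein was not measured here. The 5 tested genes of the MYC family had log2 fold changes from -0.33 to 0.09, with overlapping groups in each, and *MYC* was at 23.6 ± 9.17 and 24.3 ± 1.84 CPM (SD, n = 3 each). Whether these levels have a part in those of the members was not tested.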

How the data were processed

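Counts of 6 libraries of 3′ mRNA sequencing were used, 3 DMSO and 3 EZH2i. The authors aligned reads to hg38 and deposited raw counts per Ensembl gene and library; the submitters' processing notes name STAR 2.6.0c, HTSeq 0.11.2 and DESeq2. Their table of a DESeq2 comparison was not used. Rows naming no gene were left out, which kept 63.6% to 67.9% of the listed reads. Symbols and exons came from GENCODE version 44 on GRCh38, which matched 60401 of 60671 identifiers.

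Counts were analyzed with edgeR 4.0.16 in R 4.3.3: filterByExpr with a minimum count of 10, TMM, glmQLFit and glmQLFTest with default options, two-sided, and Benjamini-Hochberg adjustment over all tested genes. Standard errors are the log2 fold change divided by the square root of F. Relative levels use a pseudocount of 0.5 CPM. The fit was tested on simulated data. DESeq2 1.42.0, limma-voom (limma 3.58.1), other scalings, filters, thresholds and left-out replicates were alternatives. Repeated windows were sought in hg38.

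The members and gene lists were chosen with earlier results of these data known. Genes given in full are those called and, per branch, those with the largest fold change and the highest and lowest CPM, untested genes (as reads) included; others given in full were added after their values were seen.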

Additional observations from a re-analysis of the deposited data

How the results depend on the processing

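The number of members lower was 2, where 0.922% of all tested genes were lower. Without a filter on low counts it was 8 and with DESeq2 4, where 1.33% and 0.95% of all genes were lower. At an adjusted p under 0.01 it was 1, where a stricter threshold gives fewer by construction. The share of all tested genes lower at that threshold was not taken, so this count has no background beside it. When a replicate was left out, it ranged from 1 (without DMSO replicate 1) to 4 (without EZH2i replicate 1). In these 2 fits 0.258% and 0.973% of all genes were lower. The cause was not tested. Under the other alternatives 2 or 3 members were lower, where from 0.158% to 1.21% of all genes were, and 0 members were higher under every alternative run. The median log2 fold change of the members stayed between -0.28 and -0.22. In an alternative chosen after seeing the data, the 29 members whose 3′ ends share no base on the same strand and hold few repeated windows had 2 genes lower and a median of -0.22. The number of other pathway genes lower, 0, was 2 without a filter, 1 with DESeq2 and 1 with a replicate block, and from 0 to 1 without a replicate. The shares of all genes lower in these fits are those above, with 1.21% for the replicate block. The log2 ratio of mitochondrial to cytosolic folate reads, -0.21, was -0.36 for *MTHFD2* over *MTHFD1* alone and -0.10 with *MTHFD2* left out, an alternative chosen after seeing the data.

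Replicate numbers did not pair the libraries (correlations of -0.113, -0.0505 and -0.0907 between the deviations of same-numbered libraries). With a replicate block, 3 members were lower, with *GPT2* added, where 1.21% of all tested genes were lower.

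Log2 fold changes close to 0, none of them called, changed sign. *GLUD1* was at -0.00607 with RLE size factors, -0.0217 without a filter, -0.0156 with DESeq2, -0.00236 with limma-voom and -0.00542 with the replicate block, and *GLUL*, *GOT2* and *PYCR1* were at 0.0159, 0.00356 and 0.00238 with library size only. Across the fits without 1 replicate, *PHGDH* ranged from -0.291 to 0.0518, *MTR* from -0.0328 to 0.0977, *GLUL* from -0.0592 to 0.0326, *GLUD1* from -0.0934 to 0.0692, *GOT2* from -0.0742 to 0.0396, *PYCR1* from -0.107 to 0.0389 and *SRM* from -0.0908 to 0.157. The cause was not tested. Counting a gene's fit under an alternative as 1 result, 204 of 222 without a replicate and 277 of 296 under the other alternatives kept their sign and their side of the threshold. The reads per library limit what can be shown for genes at few CPM, such as *ASNS* and *PYCR3*.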
